A study of Rattus norvegicus with 6 samples.

Results

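The transcript described here is the row ENSRNOG00000019704 of the deposited kidney tables, 1 of 28787 gene models, read as rat Resp18, the gene mutated in this study. The tables give identifiers without gene names, and 0 of their 26689 Ensembl identifiers were found in the RefSeq gene table used for symbols. The row was chosen by its read counts and fold change in these same libraries and taken as the mutated gene. Its difference between the groups is therefore given below as a description and not as a test. For the same reason that difference is no check on the identity of the row or on the labels of the libraries. Throughout, this row is called the Resp18 row.

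RNA was sequenced from kidneys of male rats aged 7 weeks that had been moved at 6 weeks to a diet with 2% salt and kept on it for 1 week. Control rats belonged to the inbred Dahl Salt Sensitive strain (Dahl SS), in which salt in the diet raises blood pressure. The other group was labelled Resp18 mutant, and the background strain of these rats is not stated here. Each group had 3 libraries, and both had the same diet, sex and age. The labels do not give the kind of mutation, its position in the gene, whether rats carried it on both chromosomes, or whether each library represents a separate animal. Spreads and p-values here describe these libraries, and their differences may be technical. The labelled tissue could not be checked against kidney marker genes, which have no names in the tables.

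The product of Resp18, regulated endocrine-specific protein 18, belongs to the secretory pathway and is best known from neuroendocrine cells such as those of the pituitary. It resembles the luminal part of Ptprn (also called IA-2), a membrane protein of dense-core secretory granules, the vesicles in which peptide hormones are stored before regulated release. Depending on its kind, a mutation in a coding gene can leave the level of the transcript as it was or lower it. The RefSeq annotation of the rat assembly GRCr8 places Resp18 between the protein-coding genes Ptprn and Dnpep (aspartyl aminopeptidase). The rows of these neighbours, of other secretory granule genes and of the renin-angiotensin genes named in the series title were not analysed here, since no identifier could be paired with a name.

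In Dahl SS kidneys the Resp18 row held 242, 177 and 181 reads (replicates 1 to 3). In the mutant kidneys it held 12, 10 and 9 reads. Every mutant library lay below every control library. After scaling for library size, the same held for 8.47% of the 16324 models tested. The mutant libraries were not shallower as a group. Library totals ran from 14497217 to 22854561 reads in Dahl SS and from 13427302 to 21958869 in mutants. The deepest mutant library, replicate 1, gave 12 reads from 21958869, while the shallowest control, replicate 2, gave 177 from 14497217.

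In CPM, read counts brought to the same library size with TMM factors, the row stood at 10.4, 12.4 and 11.1 in Dahl SS replicates 1 to 3. It stood at 0.565, 0.480 and 0.658 CPM in mutant replicates 1 to 3. The group means were 11.3 ± 0.997 CPM in Dahl SS and 0.568 ± 0.0890 CPM in mutants (SD, n = 3), and the lowest control was 15.8 times the highest mutant. Exact Poisson 95% intervals, which cover counting error only, reached from 9.12 to 14.3 CPM over the controls and from 0.230 to 1.25 CPM over the mutants. No mutant interval touched a control interval. The row was chosen for its difference, and the share of other models with separate intervals was not counted. In bulk kidney RNA, fewer cells that express a transcript and less of it per cell cannot be told apart.

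**Figure D1:**
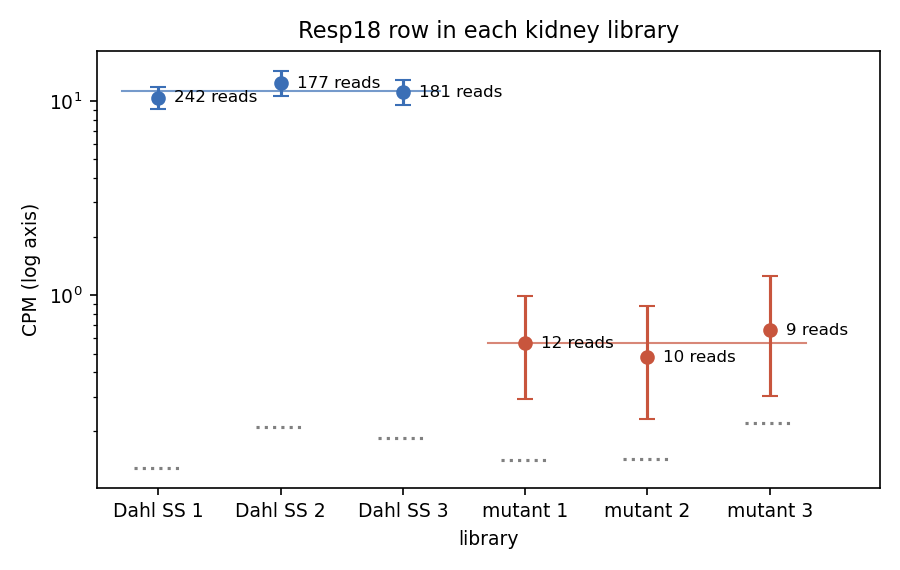
Level of the Resp18 row in CPM (log axis) in each of 6 kidney libraries, with exact Poisson 95% intervals as bars and the read count beside each point; horizontal lines are group means and dotted marks are the level of 3 reads in that library. The Dahl SS libraries sit between 10.4 and 12.4 CPM, and the mutant libraries sit between 0.480 and 0.658 CPM, above the marks for 3 reads. These marks are not a measured background.

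Some reads were still assigned to the row in every mutant library. Set against the Dahl SS mean, the level in mutant replicates 1 to 3 was 5.01%, 4.25% and 5.83% of it, with a mean of 5.03% ± 0.789 (SD, n = 3). The 9 ratios of a mutant to a control library lay between 3.88% and 6.33%. Summed over libraries, 31 mutant reads against 600 control reads gave a ratio of 4.996% after scaling, with an exact binomial 95% interval of 3.36% to 7.17% for counting error alone. The remaining level differed between the 3 mutant libraries by no more than counting error. At 9 to 12 reads per library that error is wide, and differences within it could not be seen. The remaining level was above the level of 3 reads, a chosen mark and not a measured background. That mark was 0.141, 0.144 and 0.219 CPM in mutant replicates 1 to 3. The lower limit of each mutant interval (0.292, 0.230 and 0.301 CPM) was also above the mark, which follows from the read counts alone. Whether these reads come from full-length, shortened or misassigned transcripts cannot be read from counts per gene, and no background of misassigned reads was measured.

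Within each group the row varied little. The coefficient of variation of CPM was 8.83% in Dahl SS, where counting alone gives 7.07% at the mean read number, and 15.7% in mutants, where counting alone gives 31.1%. The spread was also measured as a chi-square of the reads divided by the degrees of freedom. Under pure counting error this measure has a mean of 1 and a median below 1. For the row it was 1.54 over the control libraries and 0.238 over the mutant libraries. Gene models with between 0.5 and 2 times the summed reads of the row had a median of 3.05 in Dahl SS (4426 models) and 1.41 in mutants (2287 models). With 3 libraries these values are imprecise, and no test was made on them.

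The deposited FPKM values, which also divide by the length of the model and so allow levels to be set beside those of other genes, were 14.7, 16.98 and 15.5 in Dahl SS replicates 1 to 3. They were 0.760, 0.668 and 0.932 FPKM in mutant replicates 1 to 3. In the controls the row was above the median of detected models and below their upper quartile, with 69.5%, 72.9% and 70.5% of detected models at a lower FPKM. In the mutants it ranked low in all 3 libraries, with 24.8%, 22.2% and 24.1% of detected models lower. A transcript of moderate abundance in control kidneys was therefore below the lower quartile of detected models in mutant kidneys. Its rank by FPKM, counted from the top, was 5971, 5232 and 5707 in control replicates 1 to 3 and 14935, 15377 and 14645 in mutant replicates 1 to 3.

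**Figure D2:**
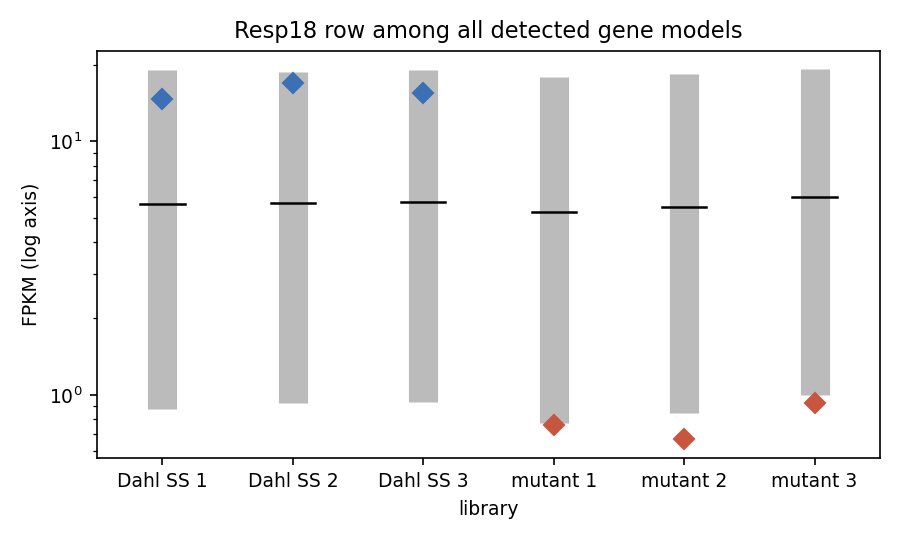
FPKM of the Resp18 row (diamonds, log axis) in each of 6 libraries against the gene models detected in that library; grey bars run from the lower to the upper quartile of detected models and black lines are their medians. The diamonds lie between the median and the upper quartile in Dahl SS (14.7 to 16.98 FPKM) and under the lower quartile in mutants (0.668 to 0.932 FPKM).

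The row was nearest in mean control FPKM to 4 other models, which are given for scale. They were picked by control FPKM alone, and differ in length from 489 to 4745 bases. The row was chosen by its fold change, so smaller differences in these models are no test of it. The Resp18 row had a mean of 15.7 FPKM in Dahl SS and 0.787 FPKM in mutants. ENSRNOG00000002838 went from 15.7 to 16.8 FPKM, ENSRNOG00000024955 from 15.7 to 13.7, ENSRNOG00000011821 from 15.7 to 23.1 and ENSRNOG00000007699 from 15.8 to 16.1. None of the 4 passed edgeR's quasi-likelihood test (adjusted p from 0.475 to 0.872), and their log2 fold changes were 0.12 ± 0.16, -0.19 ± 0.09, 0.59 ± 0.28 and 0.05 ± 0.10 (SE) in the same order.

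Fitted over all 16324 tested models with edgeR, the log2 fold change of the Resp18 row, mutant minus Dahl SS, was -4.32 ± 0.21 (SE), a level 19.9-fold lower with a 95% interval of 14.4 to 27.6. The median over all tested models was 0.01. The groups did not overlap, lower in mutants, in 8.47% of tested models, a log2 fold change of -1 or lower was fitted for 0.6%, and -3 or lower for 0.0184%, which is 3 models. At an adjusted p under 0.05 edgeR called 0.0123% of models, which is 2, the Resp18 row (lower, 0.00613%) and ENSRNOG00000047786 (higher, 0.00613%). The count of 2 was 104 with DESeq2 (54 higher, 50 lower) and 1 with limma-voom. It was 13 when Dahl SS replicate 1 was left out, 1 for Dahl SS replicate 2 and 6 for mutant replicate 3, and 22 with both replicate 1 libraries left out. The choice of the row fixed its place in each of these counts, and nothing is read from it.

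The other 2 models at -3 or lower, chosen after their values were seen, differed from the Resp18 row in how even their libraries were. ENSRNOG00000048868 had 69, 19 and 11 reads in Dahl SS replicates 1 to 3 and 1, 1 and 2 in mutant replicates 1 to 3, with a log2 fold change of -4.43 ± 0.77 (SE, edgeR adjusted p = 0.217), the only fitted value below that of the Resp18 row. ENSRNOG00000009875 held 14, 274 and 101 reads in control replicates 1 to 3, against 21, 15 and 11 in mutant replicates 1 to 3, with a log2 fold change of -3.32 ± 0.98 (SE, edgeR adjusted p = 0.348). Its groups overlapped in reads, and the standard errors of both models were over 3 times that of the Resp18 row. ENSRNOG00000009875 passed the threshold when Dahl SS replicate 1 was left out (edgeR adjusted p = 0.0370), with a range of 0.0302 to 0.825 over 16 alternatives. ENSRNOG00000048868 passed it with DESeq2 (adjusted p = 0.00207, range 0.00207 to 0.825).

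**Figure D3:**
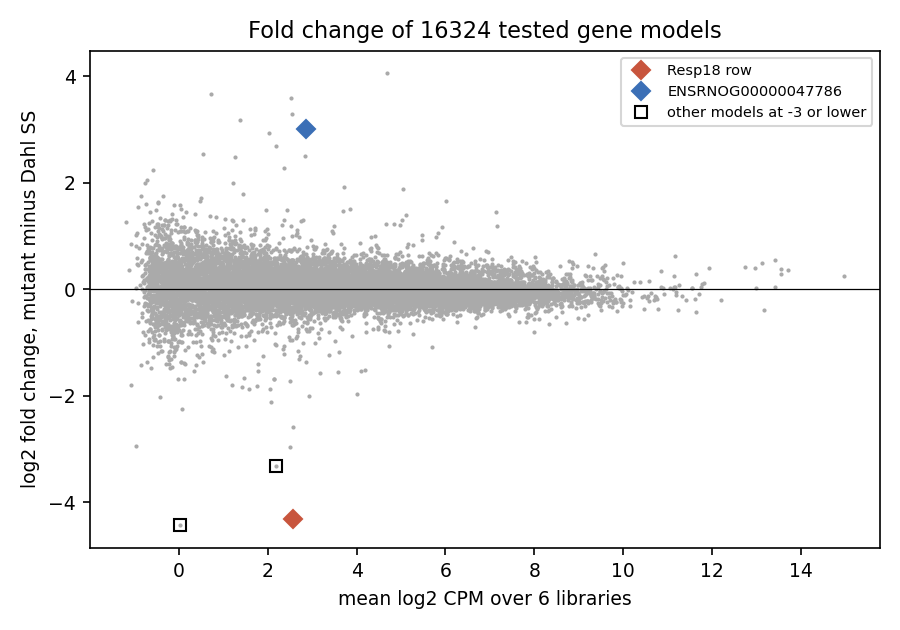
Log2 fold change (mutant minus Dahl SS) against mean log2 CPM for 16324 tested gene models, with 1 point per model. The Resp18 row lies at -4.32, ENSRNOG00000047786 at 3.01, and the squares are the other models at -3 or lower, ENSRNOG00000048868 at -4.43 and ENSRNOG00000009875 at -3.32.

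The model is 719 bases long by the FPKM and count tables together, shorter than the median of 2008 bases, and 8.40% of tested models are shorter. The 1873 tested models of 500 to 1000 bases had a median log2 fold change of 0.14. Among 1857 other models within 0.5 log2 CPM of the row, the median absolute log2 fold change was 0.18 and the lowest was -3.32. The Resp18 row was chosen by its fold change, so smaller changes in either set are no test of it. Across tested models, the Spearman correlation of a library's log2 CPM deviation (from the mean of the 6 libraries) with model length was highest in Dahl SS replicate 1 (0.369) and lowest in mutant replicate 1 (-0.373), and lay between -0.170 and 0.0394 in the other libraries. With these 2 libraries left out, a setting added after seeing the data, the value of the Resp18 row was -4.38 ± 0.28 (SE).

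ENSRNOG00000047786, the only model that edgeR called higher in mutants, had a low control level. Its rise was not the largest fitted. ENSRNOG00000049097, which edgeR did not call, had a log2 fold change of 4.05 ± 0.91 (SE, edgeR adjusted p = 0.279). Its values in the alternatives were not recorded. ENSRNOG00000047786 stood at 1.37, 1.96 and 1.47 CPM in Dahl SS replicates 1 to 3 and at 8.99, 18.0 and 11.1 CPM in mutant replicates 1 to 3. Its log2 fold change was 3.01 ± 0.30 (SE, edgeR adjusted p = 0.0297). The call was lost in 6 of 16 alternatives, among them the fits that left out Dahl SS replicate 2 (edgeR adjusted p = 0.0577) or replicate 3 (edgeR adjusted p = 0.301), with a range of 2.95e-18 to 0.301. The mutant libraries differed more from each other in this model than in the Resp18 row, with replicate 2 the highest. Pearson's r of log2 CPM between this model and the Resp18 row over the 6 libraries was -0.976, and that of the deviations from the group means was -0.276. Both were picked for their differences between the groups, in opposite directions. A strongly negative r over all libraries was set by that choice, and no relation is read from it.

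Likeness to the Resp18 row was measured as Pearson's r of log2 CPM over the 6 libraries, among 15132 other models with a mean of at least 1 CPM. With so few libraries in 2 groups, a high r mostly marks models whose groups are separate and even, and it is a description. At an r of 0.95 or higher were 60 models, and at -0.95 or lower 57. The 3 models with the highest r were ENSRNOG00000020776 (0.992), ENSRNOG00000010309 (0.989) and ENSRNOG00000019168 (0.989). Each differed far less between groups than the Resp18 row, which was chosen by its fold change. ENSRNOG00000020776 stood at 96.9, 102 and 100 CPM in Dahl SS replicates 1 to 3 and at 82.0, 79.2 and 82.1 CPM in mutant replicates 1 to 3. Its groups did not overlap, which its selection by r favours. The log2 fold changes of the 3 models were -0.30 ± 0.07, -0.23 ± 0.10 and -0.52 ± 0.11 (SE), and none passed edgeR's test (adjusted p = 0.2999, 0.463 and 0.276).

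The 3 models with the lowest r were ENSRNOG00000008375 (-0.994), ENSRNOG00000012367 (-0.994) and ENSRNOG00000014515 (-0.991). Their levels were higher in mutants, at log2 fold changes of 0.53 ± 0.17, 0.75 ± 0.13 and 0.31 ± 0.10 (SE), and none passed edgeR's test (adjusted p = 0.363, 0.217 and 0.352). ENSRNOG00000012367 stood at 6.01, 5.73 and 6.38 CPM in Dahl SS replicates 1 to 3 and at 10.4, 10.2 and 9.94 CPM in mutant replicates 1 to 3, and passed DESeq2's test (adjusted p = 0.0209, range 0.0209 to 0.825 over 16 alternatives). None of these 6 models resembled the Resp18 row in the size of its difference. The row was chosen by its fold change, so smaller differences in these models are no test of it.

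**Figure D4:**
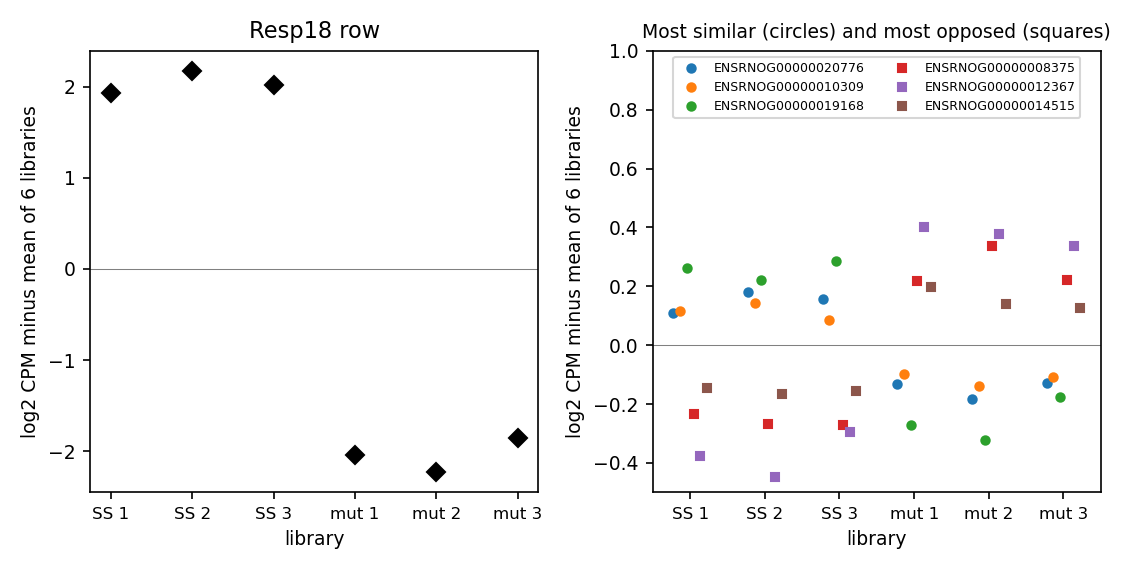
Log2 CPM minus its mean over 6 libraries for the Resp18 row (left) and for the 3 models with the highest and the 3 with the lowest correlation with it (right, on a narrower axis). The Resp18 row, chosen by its fold change, spans about 4 log2 units between groups. The largest log2 fold change on the right is 0.75.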

How the data were processed

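The authors deposited raw counts of reads for each gene model, and a second table with FPKM. CASAVA 1.8, HISAT2 2.1.0, HTSeq 0.6.1 and the build Rnor 5.0 are listed, per the submitters' processing notes, without their roles. Poly(A) selection, strand and the handling of multiply mapped reads are not stated in the labels or headers, so reads of overlapping or antisense models may not be kept apart. The deposited FPKM equals the count scaled by library total and a whole-number length.

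The member row, the lists and the tests were chosen with earlier results of these data known. Counts were fitted as deposited with edgeR 4.0.16 (R 4.3.3): filterByExpr defaults (minimum count 10, minimum total 15; 16324 models kept), TMM scaling, quasi-likelihood F test on group, Benjamini-Hochberg adjustment over all tested models, threshold 0.05. The SE is the log2 fold change over the square root of F. CPM used TMM-scaled library sizes, and log2 CPM a prior count of 2. The fit was also run on simulated counts, with fold changes smaller than that of the Resp18 row, and no result here rests on it.

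Named models were the row itself, the 3 highest and 3 lowest correlations with it, the 2 nearest above and 2 below it in control FPKM, and any model past the threshold. The other 2 models at a log2 fold change of -3 or lower, and ENSRNOG00000049097, were added after their values were seen. Alternatives were DESeq2 1.42.0, limma-voom (limma 3.58.1), limma on log2(FPKM + pseudocount), other scalings and filters, a replicate block, and libraries left out. Titles number both groups 1 to 3, with no statement that numbers pair the libraries.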

Additional observations from a re-analysis of the deposited data

How the results depend on the processing

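The log2 fold change of the Resp18 row kept its direction in 16 of 16 alternatives and moved by less than the spread between libraries (0.161) in 14. It was -3.23 with limma on log2(FPKM + 1), with and without a filter on low values, where the pseudocount is larger than the mutant FPKM and narrows the difference. Leaving out single libraries gave values from -4.41 to -4.20, and the remaining level ranged from 4.63% to 5.44%, against 5.03%. The count of 2 called models was 104 with DESeq2, 1 with limma-voom, and 1 in each of the 3 limma fits to log2 FPKM. It ranged from 1 to 13 with 1 library left out (13 when that was Dahl SS replicate 1, 1 for Dahl SS replicate 2, 6 for mutant replicate 3) and was 22 without both Dahl SS replicate 1 and mutant replicate 1, a setting chosen after seeing the data. The cause was not tested. With the replicate block edgeR also called 2 models, and the value of the Resp18 row was -4.31. The deviations of libraries with the same number were not positively correlated (r = -0.274, -0.144 and -0.00176 over tested models), and the numbers were not taken as pairs. ENSRNOG00000002838 reversed, to -0.0935 (log2), without both of those libraries. Alternatives for the gene lists and genomic neighbours were not run, for want of gene names. The remaining level rests on 31 reads in the mutants.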
